A study of Drosophila melanogaster with 5 samples.

Results

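The nuclei described here are those whose deposited cluster name is "lower segment principal cells 2 (Pvr-act)": 763 of the 21371 annotated nuclei of 5 single-nucleus RNA libraries from adult female fly Malpighian tubules, the renal organ of Drosophila. They were taken by that name alone, in every library. The library PCts > Pvr act (CG31272-GAL4, tub-GAL80TS > UAS-Pvr act; labelled PCts>Pvr Activation) gave 725 of them, or 95.02% of the cluster. EGT > yki act, labelled EGT>Yki, in which esg-GAL4 with tub-GAL80TS drove UAS-yki3SA beside UAS-GFP, gave 24, and EGT > w1118, with UAS-GFP alone, gave 14. Neither PCts > w1118 (CG31272-GAL4, tub-GAL80TS > +) nor the library labelled PCts > Pvr RNAi (the same driver with UAS-Pvr RNAi) gave any. The driver CG31272-GAL4 acts in principal cells, and nuclei were sorted by a DNA dye, given as DRAQ7 in the labels and as Hoechst in the study's methods, not by cell type.

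The study compared tubules of flies with gut tumors, made by activated Yki in esg-expressing cells, with tubules in which Pvr was activated or lowered in principal cells. Each library pooled 90 pairs of tubules, and there was 1 library per genotype, so differences between genotypes had no replicate check and no p-value is given. Flies were raised at 18°C and moved to 29°C to release GAL4 from GAL80. The labels give 8 days at 29°C in the protocol fields and 5 days in the treatment field.

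Pvr is the fly receptor of the PDGF and VEGF family; it binds the Pvf ligands and signals through Ras and MAP kinase and, in some settings, through Rac and JNK. Principal cells are the large cation-transporting epithelial cells of the tubule, and Cut (ct) is a transcription factor that they express. In flies Pvr is also well known from hemocytes, the blood cells, where it acts in survival and migration. Many hemocytes secrete basement membrane proteins such as collagen IV and papilin, and Hemolectin (Hml) is a secreted clotting protein used as a marker gene for them.

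The leading genes of the cluster went against its name. The 10 genes with the largest fold over the rest of the PCts > Pvr act library were Ppn, Col4a1, Ten-m, Hml, LpR2, zfh1, Karl, vkg, regucalcin and CG5080, and neither Pvr nor ct, the genes given for the name, was among them. The median nucleus had 674 unique molecular identifiers (UMIs), 29.4% of the library median of 2295. Because none of the principal cell markers stood among the leading genes at so low a depth, the cluster is called by its leading genes below, the Ppn/Hml nuclei. No other cell type name was given to it.

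Ppn encodes papilin, a large secreted glycoprotein of basement membranes. It averaged 68.0 UMIs per 10,000 UMIs of a nucleus in the 725 Ppn/Hml nuclei of PCts > Pvr act and had at least 1 UMI in 97.5% of them. In the other 8 annotated types with 20 or more nuclei in that library its mean ran from 1.30 in lower tubule principal cells to 8.16 in visceral muscle. No other type came near the level of the Ppn/Hml nuclei. Col4a1 and vkg, the pair of collagen IV chains, averaged 36.8 and 12.1 against 0.98 and 0.33 in the rest of the library. Their genes lie beside each other on chromosome 2L in the BDGP6 annotation, vkg from 5012144 to 5028191 on the minus strand and Col4a1 from 5029609 to 5037279 on the plus strand.

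Hml averaged 33.9 UMIs per 10,000 in the Ppn/Hml nuclei, against 0.96 in the rest of the library. After every nucleus was thinned to 500 UMIs, which left out none of these nuclei, 70.9% of the Ppn/Hml nuclei still had a UMI of Hml, compared with 80.4% before. The next highest share after thinning was 8.7%, in renal stem cells 2 (Pvr-act), and lower tubule principal cells (Pvr-act), an epithelial type that should lack Hml, stood at 2.62%. Before thinning those types stood at 13.8% and 15.7%, at median depths of 768 and 5151 UMIs.

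LpR2, a lipophorin receptor that takes up lipid, averaged 65.2 in the Ppn/Hml nuclei and 5.32 in the rest of the library, but 42.5 in the 69 fat body nuclei. Fat body was the only other type of that library above 10 for any of the leading 10. Ten-m, a teneurin of the cell surface, averaged 40.8 against 1.34, and zfh1, a zinc finger homeodomain transcription factor, averaged 19.5 against 0.98. Karl (13.4), regucalcin (17.9) and CG5080 (13.0) were each below 1 in the rest of the library.

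**Figure D1:**
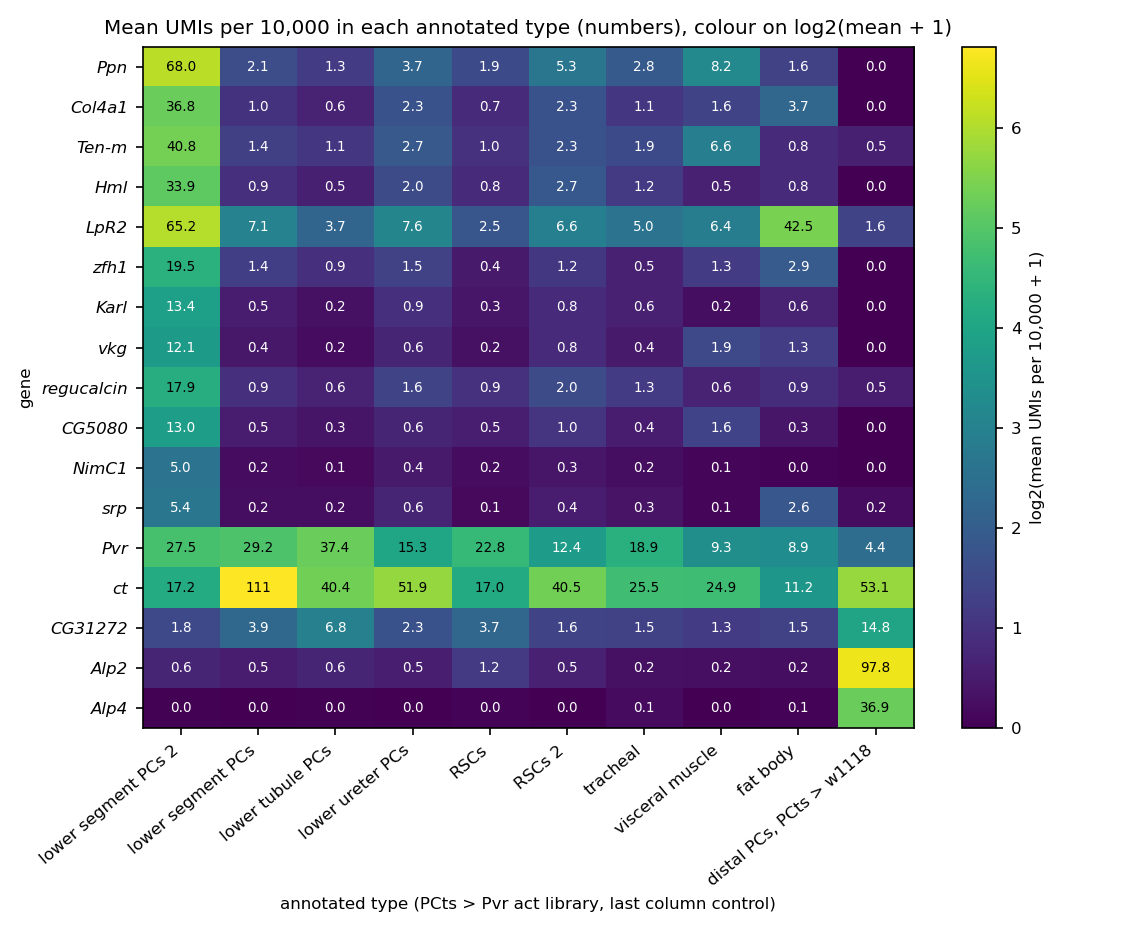
Mean UMIs per 10,000 UMIs of a nucleus for 17 genes (rows) in the 9 annotated types with 20 or more nuclei of PCts > Pvr act and in the distal principal cells of PCts > w1118 (last column). PCs are principal cells and RSCs renal stem cells. The first column (lower segment PCs 2), the Ppn/Hml nuclei, holds the highest mean of each of the 10 leading genes and of NimC1 and srp, while Pvr is spread over every type of the library and ct is highest in the other lower segment cluster.

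The same nuclei that were clustered gave these folds, so they describe the cluster and test nothing. Against the rest of the library 3297 genes were measured, meaning seen in at least 10% of nuclei on one side. Of these, 159 (4.82%) were higher and 169 (5.13%) lower in the Ppn/Hml nuclei by a log2 fold change of at least 1 on the scale of log2(mean UMIs per 10,000 + 1). A fold on this scale understates the difference for low genes. The leading genes were also present at low level in the other types: the rest of the library held between 2.67% (Col4a1) and 8.16% (LpR2) of the level of the Ppn/Hml nuclei for the leading 10. Whether free RNA gave those UMIs was not tested.

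Of the marker lists, the one for hemocytes stood highest beside the other types. Of its 7 members, 5 were past the fold against the rest of the library: Hml, NimC1, Pxn, Sr-CI and srp. NimC1, a phagocytic receptor of the Nimrod family, averaged 5.02 against 0.18, and srp, a GATA factor of blood and fat body, averaged 5.42 against 0.22. Sr-CI, a scavenger receptor, averaged 2.72 against 0.10, and Pxn, the matrix enzyme peroxidasin, averaged 1.67 against 0.09. The remaining members were rare: eater, another phagocytic receptor, averaged 0.77 with 41 UMIs and He (Hemese) averaged 0.13 with 9 UMIs, both under the 10% filter.

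Summed over its 7 members, the hemocyte list reached 49.7 UMIs per 10,000 in the Ppn/Hml nuclei and between 0.82 and 3.93 in the other types of PCts > Pvr act. In PCts > w1118 the sum was at most 0.517 in any type. Hml made up most of it in the Ppn/Hml nuclei. In all nuclei of PCts > w1118 Hml had 4 UMIs of 14781993, against 4230 of 39154127 in PCts > Pvr act, and Ppn had 14 against 9012. The EGT > w1118 library had 18 UMIs of Hml and 57 of Ppn, EGT > yki act 2 and 20, and the library labelled PCts > Pvr RNAi 1 and 11. Low counts of both genes were thus present in every library. With 1 library per genotype, the genotype, the dissection and the library cannot be told apart.

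Genes of phagocytosis went with Hml, while most listed genes of other blood cell classes were too rare to be called. A list of 16 plasmatocyte and phagocytosis genes, chosen after values had been seen, had 11 members past the fold, among them lectin-28C (7.78 against 0.43), ush, a cofactor of GATA factors (8.63 against 0.72), crq, a CD36 family receptor (4.56 against 1.49), and drpr, an engulfment receptor (8.70 against 3.67). Since Hml, NimC1, zfh1 and others of the list were already known to lead the cluster, the count is a description. The lists that follow were added in the same way. PPO1 and lz, genes of crystal cells, had 3 and 5 UMIs. Of 7 lamellocyte genes 3 were measured against the rest of the library, none higher and 1 lower. Of 9 nephrocyte genes 3 were measured, and all 3 were lower. Over all measured genes 4.82% were higher and 5.13% lower. Against the distal principal cells of PCts > w1118, 2 of 3 measured lamellocyte genes, mys and msn, were higher. There 1 of 4 measured nephrocyte genes was higher and 1 lower. Members seen in too few nuclei could not be called.

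Markers of trachea, muscle and fat body were low. Summed tracheal markers stood at 0.59 in the Ppn/Hml nuclei and 14.4 in annotated tracheal cells, visceral muscle markers at 18.8 and 465, and fat body markers at 2.54 and 52.8. The defining tracheal genes btl and trh had 0 UMIs in the 725 nuclei, which allows a share of nuclei with a UMI of up to 0.414% and, at this depth, does not limit the share that express them. Stellate cell markers summed to 1.5, enterocyte markers to 0.08 and neuron markers to 0.96. Renal stem cell markers, of which 4 of 7 were matched (esg, Dl and hdc were not), summed to 6.03, against 4.29 in renal stem cells (Pvr-act), 6.76 in fat body and 23.6 in renal stem cells 2 (Pvr-act). Most of the sum in the Ppn/Hml nuclei came from the Notch receptor gene N.

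**Figure D2:**
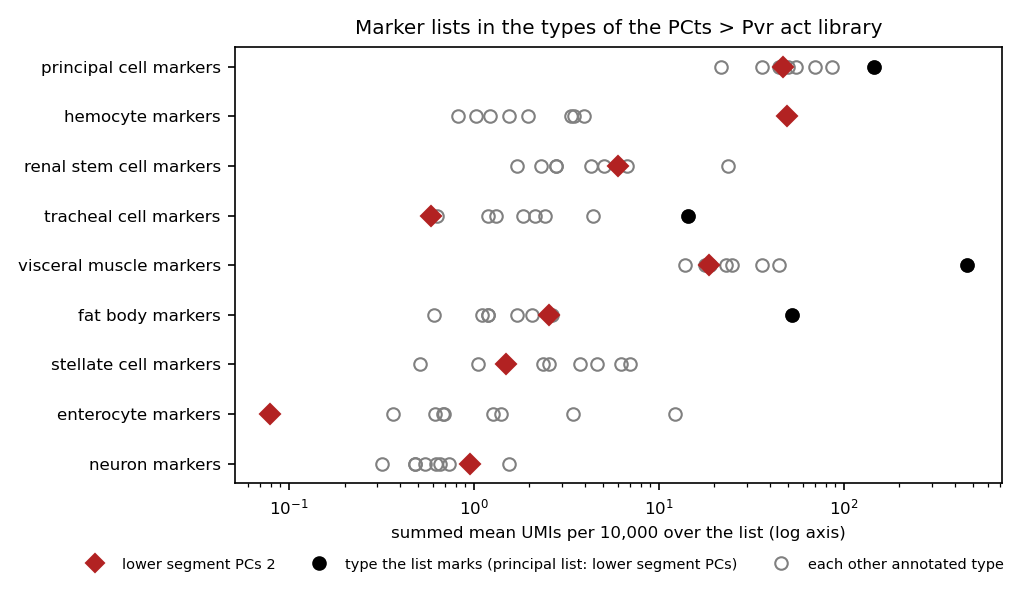
Summed mean UMIs per 10,000 of 9 marker lists (rows, log axis) in the types of PCts > Pvr act with 20 or more nuclei; diamonds are the Ppn/Hml nuclei, black dots the type that the list marks where there is one, and open circles the other types. The diamond lies at or below the other types for tracheal and enterocyte markers, among them for most lists (47.0 for principal cell markers), and far to their right, at 49.7, for hemocyte markers.

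The principal cell markers gave little for the name. Their sum over 11 genes was 47.0 in the Ppn/Hml nuclei, 145 in the other lower segment cluster and 49.98 in tracheal cells of the same library. Pvr and ct made up nearly all of it, at 27.5 and 17.2. CG31272, the gene that gives the PCts driver its name, averaged 1.85 and was seen in 12.3% of the nuclei. Uro, the urate oxidase gene of the main segment, averaged 0.25, and NaPi-T had 0 UMIs. Irk2 and List had 1 UMI each, salt 2 and Irk3 3. In the other lower segment cluster Pvr and ct, at 29.2 and 111, also made up most of the sum. Against that cluster, and against the rest of the library, only 3 of the 11 markers were measured. In both comparisons ct was the 1 lower marker, and over all measured genes 8.43% and 5.13% were lower. The rare markers thus did not set the Ppn/Hml nuclei apart from other nuclei of their library.

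Pvr stood at 27.5 UMIs per 10,000 in the Ppn/Hml nuclei, with a median nucleus at 23.9 and the middle 50% of nuclei between 13.8 and 38.2. In the same library it averaged 37.4 in lower tubule principal cells (Pvr-act), 29.2 in the other lower segment cluster, 22.8 in renal stem cells (Pvr-act), 18.9 in tracheal cells, 15.3 in lower ureter principal cells, 12.4 in renal stem cells 2 (Pvr-act), 9.28 in visceral muscle and 8.91 in fat body. By mean, the Ppn/Hml nuclei thus ranked the third of 9 types. The steps to the neighbours above and below were smaller than the middle range of single nuclei. After the thinning used for Hml, the share of nuclei with a UMI of Pvr gave another order. It was 73.7% in the Ppn/Hml nuclei, the highest of the 9 types. Lower tubule principal cells (Pvr-act) followed with 67.3% and the other lower segment cluster with 62.0%. Over all nuclei Pvr averaged 27.03 in PCts > Pvr act, 4.08 in EGT > yki act, 4.28 in EGT > w1118, 4.3 in PCts > w1118 and 4.74 where the label was PCts > Pvr RNAi. The files give 1 value per nucleus for Pvr, with no split between the transgene and the endogenous gene. The rows for gal4 and EGFP had 0 UMIs in every nucleus of PCts > Pvr act.

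For ct the order was different. The other lower segment cluster averaged 111, lower ureter principal cells 51.9, renal stem cells 2 (Pvr-act) 40.5, lower tubule principal cells (Pvr-act) 40.4, tracheal cells 25.5 and visceral muscle 24.9, while the Ppn/Hml nuclei stood at 17.2, next to renal stem cells (Pvr-act) at 17.0 and above fat body at 11.2. After thinning to 500 UMIs ct was seen in 56.7% of the Ppn/Hml nuclei, 95.7% of the other lower segment nuclei, 55.4% of tracheal nuclei and 30.8% of the 26 visceral muscle nuclei. The means and the shares thus gave different orders beside trachea and visceral muscle, and both put the Ppn/Hml nuclei below the other lower segment cluster.

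The Ppn/Hml nuclei were 7.74% of the 9367 nuclei of PCts > Pvr act (exact Clopper-Pearson 95% interval 7.21% to 8.30%). They were 0.659% of EGT > yki act (0.423% to 0.979%) and 0.414% of EGT > w1118 (0.227% to 0.694%). PCts > w1118 had 0 of 3015 nuclei, which by a floor of 3 nuclei allows a share of up to 0.0995% (exact upper bound 0.122%), and the library labelled PCts > Pvr RNAi had 0 of 1969, which allows up to 0.152% (exact upper bound 0.187%). These intervals and limits cover counting error only. The share depended on depth: without the 25% of nuclei with the fewest UMIs, 82 of 7021 nuclei remained in PCts > Pvr act, or 1.17%. In the same way 2 of 2729 remained in EGT > yki act (0.0733%) and 6 of 2534 in EGT > w1118 (0.237%), which reversed the order of these 2 libraries.

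The depth itself set these nuclei apart. In PCts > Pvr act they held 500 to 4235 UMIs, 84.8% of them under 1000, and a median of 454 genes. The other lower segment cluster had a median of 2748 UMIs and lower tubule principal cells (Pvr-act) one of 5151. Renal stem cells 2 (Pvr-act), with a median of 768, were the nearest to the Ppn/Hml nuclei. No nucleus of PCts > Pvr act had fewer than 500 UMIs, whereas the minimum of the other libraries lay between 150 and 223, so nuclei below 500 UMIs were not represented in the library that held the cluster. Library totals ran from 10018765 to 39154127 UMIs, and 5 of the 763 nuclei carried a barcode also found in another library, compared with 106 of all 21371.

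**Figure D3:**
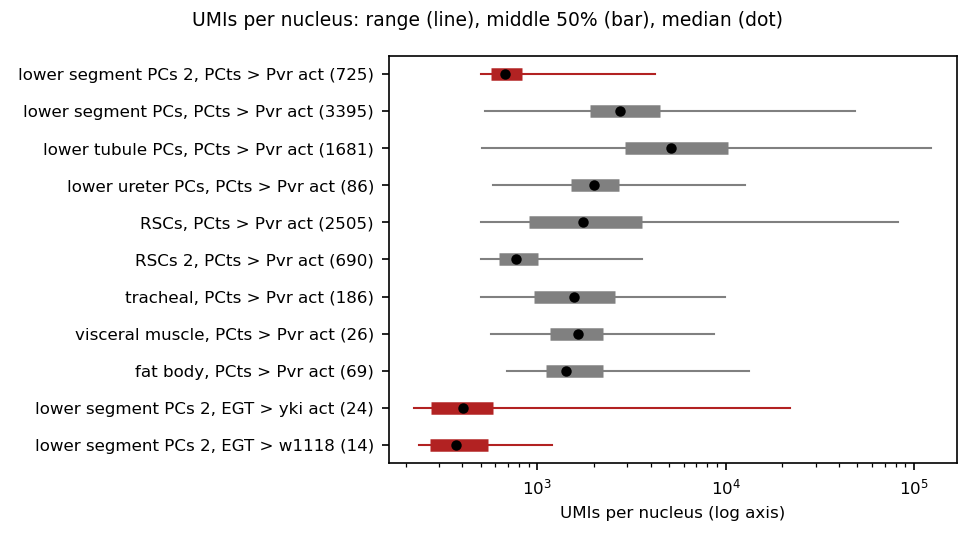
UMIs per nucleus (log axis) in each annotated type of PCts > Pvr act, and in the nuclei of the same cluster name in EGT > yki act and EGT > w1118 (red rows); lines are the full range, bars the middle 50% and dots the median, with the number of nuclei in brackets. The Ppn/Hml nuclei have the lowest median of their library, 674, and the 24 and 14 nuclei of the EGT libraries lie lower still, at 402.5 and 369.

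Within the cluster the leading genes varied little with depth, except in the deepest nuclei. In 4 bins of 180 to 183 nuclei by UMIs, the summed mean of the leading 10 was 327, 347, 335 and 274 UMIs per 10,000 from the shallowest to the deepest. Hml stood at 35.6, 36.5, 36.8 and 26.8 and Pvr at 28.3, 27.1, 29.0 and 25.4. The deepest bin, which reached from 831 to 4235 UMIs, was the lowest for the leading 10, Hml, Ppn and Pvr.

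Most single nuclei carried several of the leading genes. The 10 were picked by their folds in these same nuclei over the rest of the library. A contrast with the other types was thus built in, and the shares are a description. At least 5 of the 10 were seen in 697 of 725 nuclei (96.1%), all 10 in 63 and none in 1. After thinning to 500 UMIs, 88.8% of the Ppn/Hml nuclei kept at least 5. The other types of that library had between 0 and 4.78% at the same depth, the highest being renal stem cells 2 (Pvr-act) with 33 of 690 nuclei, and the other lower segment cluster had 44 of 3395. No distal principal cell of PCts > w1118 had 5. Per nucleus the sum of the 10 genes had a median of 319 UMIs per 10,000, with the middle 50% of nuclei between 224 and 408.

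Nuclei with and without a UMI of Hml shared the matrix genes. Of the 725, 583 had a UMI of Hml and 142 had none. Ppn averaged 70.5 with Hml and 58.1 without, Col4a1 37.9 and 32.6, and LpR2 65.9 and 62.5. Pvr averaged 27.995 and 25.3, and ct 17.6 and 15.7. The nuclei without Hml were slightly shallower, with a median of 636 UMIs against 680.

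The 38 nuclei of the same name in the EGT libraries mostly lacked these genes. In EGT > yki act 21 of 24 nuclei had no UMI of any leading gene and 1 had at least 5; Hml and Ppn had 0 UMIs, which allows a UMI in up to 12.5% of nuclei and, at this depth, does not limit the share that express them. In EGT > w1118 11 of 14 had none and 2 had at least 5, and Hml had 3 UMIs, all in 1 nucleus. Alp2 and CG31272 were instead higher in them than in the nuclei of PCts > Pvr act, and Pvr was lower. Alp2, an alkaline phosphatase, averaged 38.5 in the EGT > yki act nuclei and 109 in the EGT > w1118 nuclei, against 0.64 in those of PCts > Pvr act. CG31272 averaged 20.5, 9.89 and 1.85, and Pvr 2.54, 4.29 and 27.5, in the same order. At medians of 402.5 and 369 UMIs these means rest on few molecules, for example 37 and 56 UMIs of Alp2 in all. Of the 31647 UMIs of the EGT > yki act nuclei, 21875 came from 1 nucleus. The levels of these genes under the cluster name thus differed between libraries, and whether free RNA gave the UMIs was not tested. The results below use the 725 nuclei of PCts > Pvr act.

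To place the nuclei beside tubule cells without the transgene, they were set against the 559 nuclei annotated as distal principal cells in PCts > w1118. These were 298 lower tubule, 222 upper ureter and 39 lower ureter nuclei, with median depths of 10432, 2806 and 1499 UMIs. Most principal cell markers were low in the Ppn/Hml nuclei, so cell type, genotype and library cannot be told apart in this comparison. Genes of basement membrane, cell movement and Ras signalling were higher in the Ppn/Hml nuclei, and the alkaline phosphatase genes Alp2 and Alp4, some renal transport genes and some segment transcription factors were lower. Of 4780 measured genes, 297 (6.21%) were higher and 435 (9.1%) lower by a log2 fold change of at least 1. The same cells of EGT > w1118 as control gave 333 and 475, of which 282 and 362 were also called against PCts > w1118.

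**Figure D4:**
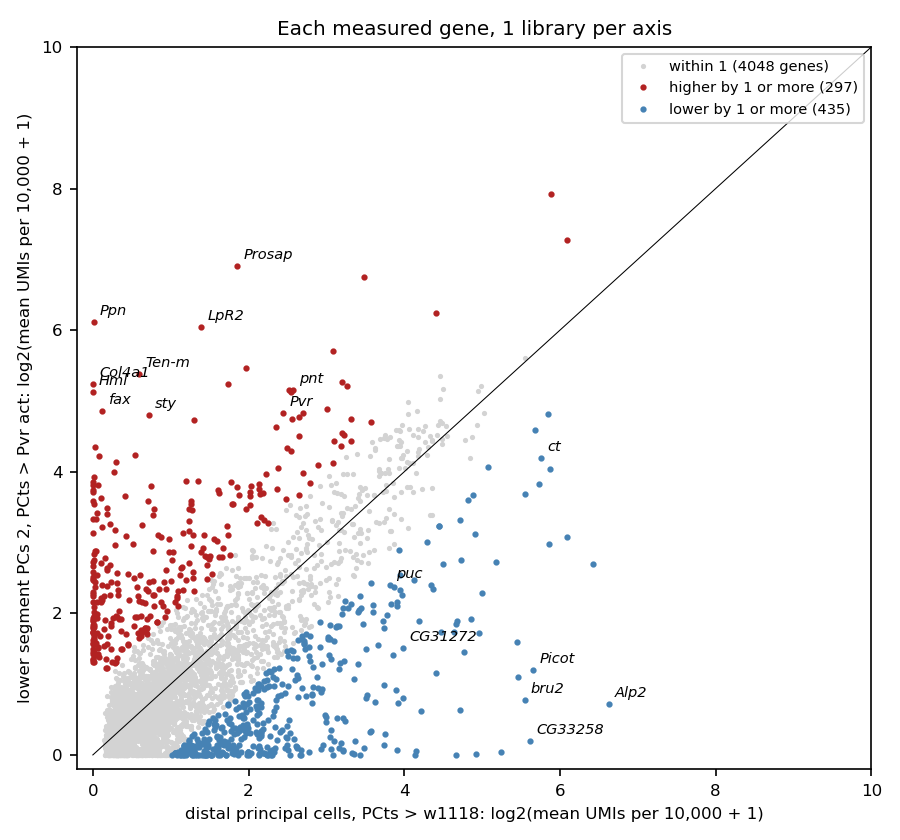
Mean level of each of the 4780 measured genes in the Ppn/Hml nuclei of PCts > Pvr act (vertical axis) against the distal principal cells of PCts > w1118 (horizontal axis), both as log2(mean UMIs per 10,000 + 1), with the diagonal drawn; the 297 genes higher by 1 or more are red and the 435 lower are blue. Ppn, Col4a1 and Hml stand at the left edge, with almost no UMIs in the control, and Alp2, bru2 and Picot stand at the lower right.

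The highest genes against the control were Ppn, Col4a1, Hml, Prosap, Ten-m, fax, LpR2, zfh1, vir-1 and sty. Hml had 0 UMIs in the control and was at least 4628-fold higher, taking 3 UMIs over the group as the floor. Karl and vkg, also at 0, were at least 1846-fold and 1659-fold higher. Prosap, a scaffold protein of the Shank family, averaged 119 against 2.61. For some of these genes the whole library was high: fax averaged 27.99 in the Ppn/Hml nuclei, 24.0 in the rest of PCts > Pvr act and 0.08 in the control, and vir-1 17.7, 17.0 and 0.06. Their levels therefore did not set the Ppn/Hml nuclei apart from the rest of their own library.

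The lowest genes were Alp2, CG33258, Alp4, Cyp6a18, bru2, CG13309, Picot, CG3168, CG15279 and CG7084. Alp2 and Alp4, alkaline phosphatases, averaged 0.64 and 0.03 against 97.8 and 36.9, and Cyp6a18, a cytochrome P450, 0.01 against 29.3. CG13309 had 0 UMIs in the Ppn/Hml nuclei and was at least 417-fold lower, and CG15279 was at least 358-fold lower. These were low throughout the library, with Alp2 at 0.72, Alp4 at 0.03, Cyp6a18 at 0.01 and CG13309 at 0.05 in its other nuclei. Picot, a phosphate transporter gene, averaged 1.29 against 49.4 and stood at 3.53 in the other nuclei. The RNA-binding protein gene bru2, at 0.71 against 45.8, was also lower than in the rest of the library (8.75).

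Many basement membrane and matrix genes were higher. Of 19 such genes, a list added after values had been seen, 14 were higher than in control distal principal cells and none lower. Their sum was 180.5 UMIs per 10,000 against 10.9. The list's median log2 fold change was 2.14, beside -0.06 over all measured genes. With nuclei of 500 to 1000 UMIs on both sides, a comparison added after the data were seen that left 615 Ppn/Hml nuclei and 29 control nuclei, 14 were higher and 1, trol, was lower. The laminin chains LanA, LanB1 and LanB2 averaged 3.63, 4.23 and 2.78 against 0.07, 0.13 and 0.26. SPARC, a collagen-binding protein, averaged 12.4 and had 1 UMI in the control, and Tig, an integrin ligand, averaged 2.33 and had 0 UMIs there.

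The enzymes that modify collagen were high as well. PH4alphaEFB, a prolyl 4-hydroxylase, averaged 6.79 against 0.22 in control distal principal cells and 1.13 in the other lower segment cluster. Plod, the lysyl hydroxylase, averaged 1.68 against 0.05 and 0.27. Mp, a collagen with multiplexin structure, averaged 3.48 against 0 UMIs in the control and 0.13 in the other lower segment cluster. The heparan sulfate proteoglycan gene trol, the fly perlecan, went the other way within the library: it averaged 1.84 in the Ppn/Hml nuclei, 4.10 in the control and 29.1 in the other lower segment cluster. Mmp2, a matrix metalloproteinase, and Timp, its inhibitor, averaged 11.4 and 8.34 against 0.08 and 0.09 in the control. In the other lower segment cluster they averaged 10.4 and 13.7, so they were high in both of these clusters of PCts > Pvr act.

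Lipophorin receptor genes were high. LpR1 and LpR2, lipophorin receptors whose genes neighbour each other on chromosome 3R, averaged 8.08 and 65.2 against 0.21 and 1.62 in the control and 0.28 and 7.13 in the other lower segment cluster. Lsd-2, a perilipin of lipid droplets, averaged 2.61 against 24.4 in the control. Of 10 lipoprotein receptor and fatty acid genes, a list added after values had been seen, LpR1, LpR2 and mgl were higher than in the control and Lsd-2 was lower. The megalin gene mgl averaged 3.28 against 1.13 in the control and 33.3 in the other lower segment cluster, where it was past the fold on the lower side. With nuclei of 500 to 1000 UMIs alone LpR1 and LpR2 stayed past the fold against the control, and mgl (0.997) and Lsd-2 (-0.84) did not.

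Outputs of Ras-MAPK signalling were high. Of 10 listed genes 9 were measured against control distal principal cells. Of these, 8 were higher and none lower, with a median log2 fold change of 1.80. Over all measured genes 6.21% were higher. The Ets activator pnt averaged 34.6 against 4.93 (log2 ratio of pooled counts between 2.51 and 2.69, exact 95% interval of counting error). The feedback inhibitor sty (sprouty) averaged 26.9 against 0.65, the MAP kinase phosphatase Mkp3 27.4 against 5.49, and the Ets repressor aop 20.6 against 7.56. The other higher members were aos, cic, edl and kek1. Neither rho nor vn, at 1.11 and 0.85 against 0.57 and 1.17, was called, and 1 of them was under the 10% filter. The same 8 were past the fold with nuclei of 500 to 1000 UMIs alone.

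The same outputs were not all highest in these nuclei within the library. Against the other lower segment cluster 3048 genes were measured, 242 (7.94%) higher and 257 (8.43%) lower, and 3 Ras-MAPK outputs were higher and 3 lower. The higher ones were pnt (34.6 against 9.23), sty (26.9 against 7.15) and kek1 (4.15 against 0.71). The lower ones were aos (4.03 against 12.2), rho (1.11 against 4.63) and vn (0.85 against 7.48), which encode secreted or ligand-processing proteins of the EGF receptor pathway. Pvr itself differed little between the clusters, at 27.5 and 29.2, and the interval of the log2 ratio of pooled counts ran from -0.11 to 0.04. With nuclei of 500 to 1000 UMIs alone aop was the fourth higher gene and aos, at -0.95, was no longer past the fold.

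Proximal Pvr signalling genes moved little. Of 16 listed genes, Pvr and mbc were higher than in the control and none was lower. The exchange factor gene mbc, which acts with Ced-12 to activate Rac, averaged 11.8 against 2.69 in the control and 3.6 in the other lower segment cluster. The ligand genes were low: Pvf1 averaged 0.42, Pvf2 0.53 and Pvf3 0.79, against 3.37, 1.91 and 6.21 in the other lower segment cluster. Against that cluster Pvf1 and Pvf3 were past the fold and Pvf2 was not.

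Some JNK and AP-1 genes showed the opposite order from pnt and sty. Of 21 listed genes 16 were measured against the other lower segment cluster, 1 higher, 5 lower and 10 within the fold. Over all measured genes 7.94% were higher and 8.43% lower. Against the rest of the library Traf4 was higher, and kay, puc, Mmp1 and cher were lower. With nuclei of 500 to 1000 UMIs alone only Traf4 and puc were past the fold there. The JNK phosphatase and target puc averaged 4.25 in the Ppn/Hml nuclei, 32.5 in the other lower segment cluster and 13.1 in control distal principal cells. It was high in both tubule groups and low in the Ppn/Hml nuclei. The Fos gene kay averaged 6.15, 20.5 and 6.60, and Mmp1, a matrix metalloproteinase, 2.90, 13.6 and 5.31. The filamin gene cher averaged 2.95, 15.2 and 1.5, and the cytokine gene upd3 0.16, 1.43 and 0.01. Traf4, an adaptor upstream of JNK, was the 1 higher gene, at 3.58 against 0.22 and 0.09. Against the control 3 genes of the list were higher, msn (14.6 against 3.66), Traf4 and Ets21C (2.78 against 0.28), and puc was the 1 lower gene, and with nuclei of 500 to 1000 UMIs alone, of which the control had 29, its log2 fold change was -0.76 rather than -1.43.

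**Figure D5:**
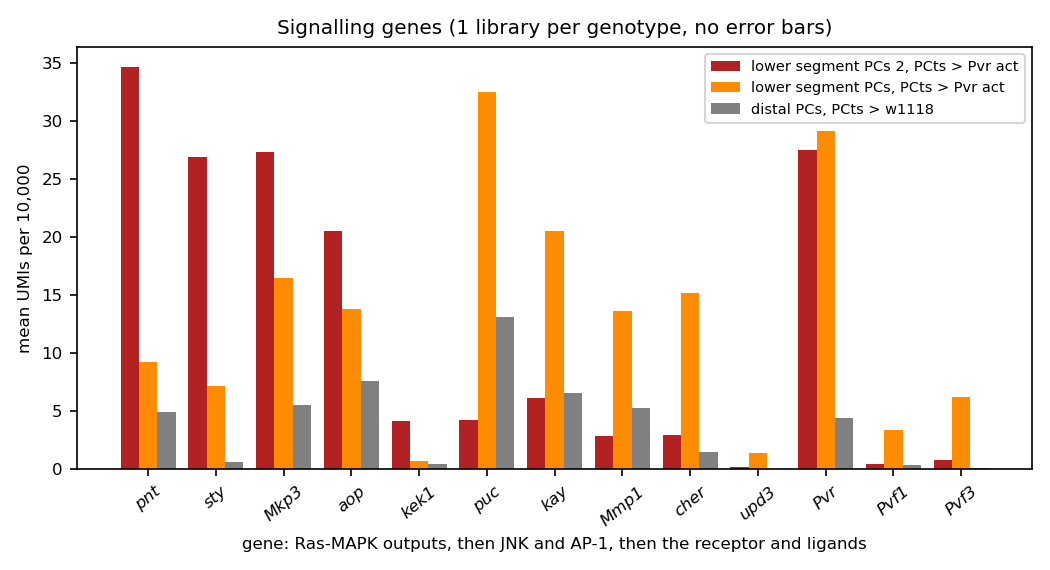
Mean UMIs per 10,000 of 13 signalling genes in the Ppn/Hml nuclei (red), the other lower segment cluster of the same library (orange) and the distal principal cells of PCts > w1118 (grey); bars start at 0 and, with 1 library per genotype, carry no error. Red bars are the tallest for pnt, sty, Mkp3, aop and kek1, and orange bars are the tallest for puc, kay, Mmp1, cher, upd3, Pvf1 and Pvf3.

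Epithelial adhesion genes were low beside the other lower segment cluster. The lowest genes there were lncRNA:CR43314, CG3655, trol, pyd, caps, Trim9, Fas3 and bru2. The Ppn/Hml nuclei held 1.97% of the lncRNA:CR43314 level of that cluster, 6.74% of pyd, the ZO-1 homologue of cell junctions, 8.21% of Fas3, a septate junction adhesion protein, and 15.5% of ct. Of 16 adhesion and cell surface genes, a list added after values had been seen, 9 were lower, including shg, the E-cadherin gene (1.23 against 8.09), Fas2 (1.75 against 20.9), Nrg (4.67 against 39.9) and the integrin gene if (2.85 against 26.7). The 2 higher ones were Ten-m and Sema2a, a secreted semaphorin, at 15.0 against 0.97.

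Junction genes of the tubule followed in part. Of 22 matched genes of pleated septate junctions and polarity, 7 were lower and 1, vari, was higher than in the other lower segment cluster. Of the 4 smooth septate junction genes mesh was lower (2.70 against 10.8), while Ssk (13.4 against 13.9) and Tsp2A (9.31 against 7.39) were within the fold.

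Some transcription factors of tubule segments were low beside the control. Of 27 matched genes 13 were measured against control distal principal cells. Of these, 8 were lower: ct, hth, drm, bowl, cad, fkh, Ptx1 and GATAe. Over all measured genes 9.1% were lower. The intestinal and renal homeobox gene cad averaged 0.12 against 8.12 and the forkhead gene fkh 0.79 against 6.02. The GATA factor gene srp was the 1 higher member. For ct the fold of -1.57 against the control became -0.50 with nuclei of 500 to 1000 UMIs alone. Against the rest of the library 9 were measured, of which ct, hth and fkh were lower and srp was higher. Over all measured genes 5.13% were lower there. With nuclei of 500 to 1000 UMIs alone, hth and fkh were lower than in the rest of the library, and Hnf4 and srp were higher.

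Some genes of renal transport were low too. Of 20 renal function genes that the study named, 5 were lower than in the control (Uro, CG30016, Vha55, NaPi-T and Irk2) and 1, Tsp2A, was higher. Tsp2A was within the fold against nuclei of 500 to 1000 UMIs (0.36), and the 5 lower genes were not. Of 32 V-ATPase subunit genes 15 were measured against the control, and 9 of them were lower. None of the 14 measured against the rest of the library differed by the fold. Over all measured genes 9.1% were lower than in the control and 5.13% lower than in the rest of the library. Of 6 diuretic hormone receptor genes 4 were measured against the control and 3 were lower, among them Dh31-R at 0.21 against 3.83. Against the rest of the library Dh31-R (1.63 there) and the transporter gene CG4928 (1.00 against 4.38) were also lower, and the anion transporter gene Prestin (1.72 against 0.13) and the Na,K-ATPase beta subunit gene nrv3 (2.19 against 0.06) were higher. Prestin and nrv3 stayed past the fold between nuclei of 500 to 1000 UMIs, and Dh31-R (-0.52) and CG4928 (-0.97) did not.

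Cytoskeletal genes were raised as in the rest of the library. Of 24 matched genes 17 were higher than in the control, such as Act42A (10.2 against 0.72), tsr, which encodes cofilin (19.3 against 4.64), and the integrin gene mys (12.5 against 3.40). With nuclei of 500 to 1000 UMIs alone 12 were higher, mys not among them (0.95). None of the 24 was higher than in the rest of the library, and 6 were lower. Antimicrobial peptide genes showed the same order: DptA averaged 4.69 in the Ppn/Hml nuclei and 4.06 in the rest of the library, with 1 UMI in the control, and AttB 2.5 and 4.18, with 0 UMIs. PGRP-LC, a receptor of bacterial peptidoglycan, averaged 4.45, 1.14 and 0.89, and was past the fold in both comparisons.

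Cytosolic ribosomal proteins took a large part of the UMIs of these shallow nuclei. Summed over 93 genes they reached 1377 UMIs per 10,000 in the Ppn/Hml nuclei, 481 in the other lower segment cluster, 1095 in the rest of the library and 1066 in control distal principal cells. Of the 93, 80 were higher than in the other lower segment cluster and none was higher than in the rest of the library. With every nucleus thinned to 500 UMIs 80 were higher, 79 of them the same genes. With nuclei of 500 to 1000 UMIs on both sides, which kept 138 of the 3395 nuclei of the other cluster, none of the 93 was past the fold, and the sums were 1282 and 928. Renal stem cells (Pvr-act) had the highest sum of the library, 2242. Transcripts of the mitochondrial genome summed to 39.5, against 34.8 in the rest of the library and 11.6 in the other lower segment cluster, and between nuclei of 500 to 1000 UMIs to 33.8 against 31.2 in the latter. The part that cytoplasmic RNA had in the ribosomal sum was not tested.

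Over the 1219 genes seen in at least 10% of the Ppn/Hml nuclei, the mean profile was most like that of tracheal cells (Pearson's r 0.716, Spearman's rho 0.670) and renal stem cells 2 (Pvr-act) (0.715 and 0.672) of the same library. The other lower segment cluster stood at 0.604 and 0.586, the lowest r but not the lowest rho of the 8 types of that library. Without ribosomal protein and mitochondrial genes its r was 0.612, above those of lower tubule principal cells (0.593), fat body (0.540) and renal stem cells (0.534). Over all 1219 genes every type of PCts > w1118 had a lower r than every type of PCts > Pvr act. These ran from 0.537 for upper ureter principal cells to 0.362 for main segment principal cells. These correlations are across genes, which are not independent replicates, and profiles of 1 library share its depth and any free RNA.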

How the data were processed

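The authors deposited 1 matrix for 5 libraries of sorted 10x nuclei, in which each value is the natural log of the UMIs per 10,000 of its nucleus plus 1, and a table with the library and cluster name of each nucleus. The submitters' processing notes name Cell Ranger 7.0.0, Seurat and BDGP6. The filters on nuclei and the treatment of doublets are not given in the sources used here, and no doublet caller was run. Because log normalization kept whole UMI steps, counts were recovered by inverting it: in 100% of nuclei every value came back whole within 1e-06. Of 16495 gene identifiers, 16447 matched a symbol.

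Means are over nuclei, as UMIs per 10,000. Fold changes are differences of log2(mean + 1) over genes seen in at least 10% of nuclei on either side, and a gene was called at a size of 1 or more. With 1 library per genotype there was no test. Intervals (95%, Clopper-Pearson for shares, Poisson or conditional binomial for counts) cover counting error only, and the floor for a count of 0 was 3 counts. The genes named were the 10 leading ones, the 10 highest and 10 lowest against control distal principal cells that had the same direction against EGT > w1118, the 8 highest and 8 lowest against the other lower segment cluster, marker genes, the genes of short lists the study names, and the 4 largest folds of each other list. Further members of the signalling, junction, cytoskeletal and immune lists were chosen after their values were seen. The cluster and the lists were chosen with earlier results of these data known. Nuclei were thinned to 500 UMIs without replacement with a fixed seed. Alternatives were the pseudocount, pooled counts, the filter, depth, centring and the control. The fold and interval functions were tested on simulated data. Promoter motifs were not analysed here. Python 3.11.15, numpy 2.4.6, scipy 1.17.1, pandas 2.3.3 and matplotlib 3.10.9 were used.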

Additional observations from a re-analysis of the deposited data

Results flagged for a closer look

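In nuclei of this cluster name, 6 genes moved by a log2 fold change of at least 1 in opposite directions, each set against the rest of its own library, in PCts > Pvr act and in an EGT library. The difference between libraries was not tested, and the EGT values rest on 24 or 14 nuclei with few UMIs. In EGT > yki act, pnt was lower by a log2 fold change of -1.35 (2 UMIs in 24 nuclei) and higher by 2.22 in PCts > Pvr act. The CD36 family gene crq was at 0 UMIs there, with -1.48 against 1.16. In EGT > w1118, caps stood at 1.82 (19 UMIs in 14 nuclei) against -2.85 in PCts > Pvr act, and zfh2 at 2.19 (8 UMIs) against -2.03. The junction gene pyd stood at 1.53 (4 UMIs) against -2.66, and the ligand gene Pvf3 at 1.42 (2 UMIs) against -1.38.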

How the results depend on the processing

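The counts of genes past the fold changed most with the pseudocount. At a pseudocount of 0.1 they were 499 higher and 1124 lower against control distal principal cells, 376 and 509 against the other lower segment cluster, and 220 and 421 against the rest of the library, where the share of higher calls went from 48.5% to 34.3%. With nuclei of 500 to 1000 UMIs alone, an alternative chosen after seeing the data, the counts against the rest were 185 and 109, so that 62.9% of calls were higher, and mt:CoI reversed to -0.36 against the other lower segment cluster, where the count of higher ribosomal protein genes went from 80 to 0 (80 after thinning all nuclei to 500 UMIs); the cause was not tested. Without the 25% of nuclei with the fewest UMIs the share in PCts > Pvr act fell to 1.17%. Without ribosomal protein and mitochondrial genes the highest r was 0.665, still with tracheal cells, and the other lower segment cluster was no longer the lowest of its library (0.612). Of 2676 values of named genes under these alternatives, 2570 kept their direction and their side of the fold, 105 kept the direction only and 1 reversed. A pseudocount of 0.1 and the lack of the filter could not make a called fold smaller. Their 282 values each were thus the same by construction. With nuclei of 500 to 1000 UMIs alone 240 values were the same, 41 kept the direction only and 1 reversed. No paired analysis was possible because each genotype had 1 library. The limits are the depth of the nuclei, the floor of 500 UMIs in 1 library, and 1 library per genotype.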

Other observations

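Some further genes, among them N of the renal stem cell list, also differed between the Ppn/Hml nuclei and other groups. The Notch receptor gene N averaged 5.26 UMIs per 10,000, against 1.08 in the other lower segment cluster, 2.20 in the rest of the library and 0.13 in control distal principal cells, and its ligand gene Ser 3.72, 0.09, 0.09 and 0 UMIs. N did not stand apart from shallow nuclei of its own library: with nuclei of 500 to 1000 UMIs alone it averaged 5.28 against 6.99 in the rest of the library, and 1.18 in the other lower segment cluster. The mitotic phosphatase gene stg averaged 4.15, 0.16, 0.28 and 0.02. Of 28 cell cycle and replication genes, 8 or fewer were measured in each comparison, and stg was the 1 that was higher. Of the JAK-STAT genes, the feedback inhibitor Socs36E averaged 7.58, below the 29.8 of the other lower segment cluster and above the 2.33 of the control. The insulin receptor gene InR averaged 21.5, against 82.3 in the other lower segment cluster and 28.4 in the control, and ImpL2, a secreted insulin antagonist, 2.46, 6.55 and 0.59.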
